A study of Mus musculus with 12 samples.

Results

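The genes described here are Sry, Sox9 and 8 further genes of the early Sertoli cell programme, Sox8, Dmrt1, Nr0b1, Fgf9, Amh, Dhh, Cbln4 and Ptgds. They were chosen by symbol, and all 10 stand among the 24411 gene symbols listed in each of the 12 libraries. The libraries were made from NR5A1(+) cells of mouse fetal gonads, and all 12 carry the genotype Nr5a1-hCD271, in which a surface tag marks cells that use the Nr5a1 gene. In 3 groups the gonads of E10.8 embryos, left joined to aorta, mesonephros and mesenchyme, were kept on filters for 19.2 h: XY without drug (control XY, n = 3), XY with 150 µM Dfo, which is the iron chelator deferoxamine (Dfo XY, n = 3), and XX without drug (control XX, n = 2). The other 2 groups were XY and XX cells labelled E11.5 and WT (E11.5 XY and E11.5 XX, n = 2 each). The culture protocol also stands on the E11.5 samples, so it does not settle how those gonads were handled. No XX group with Dfo was analysed here. The tag selects by Nr5a1 use, so Sertoli precursors were sorted together with the other cells that use Nr5a1, and the labels do not say that replicates came from separate embryos. P-values here therefore measure the spread between these samples, which may be technical.

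In the XY gonad of the mouse, SRY is made for a short time in supporting cell precursors. There it switches on Sox9, whose product, with FGF9 and prostaglandin D2 as signals between cells, keeps its own gene active and directs the cells to become Sertoli cells. Sertoli cells then send out anti-Müllerian hormone and Desert hedgehog, which act on the Müllerian duct and on steroid-producing cells. Expression of Sry depends on removal of the repressive mark H3K9me2 by KDM3A, an enzyme that needs iron, and the series asks by its title how iron deficiency changes expression in XY fetal gonads.

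Values are TPM, transcript abundances that are scaled for gene length and, within each library, to a fixed total, so they keep no record of sequencing depth. Differences are given as log2(TPM + 1) with their standard error (SE) from a limma fit, adjusted by the Benjamini-Hochberg method over 16133 genes, and a gene counts as called where its adjusted p lay under 0.05. All 10 genes passed the filter of at least 1 TPM in at least 2 libraries. Sry was read in all 8 XY libraries and the 4 XX libraries listed it at 0. Xist, which marks cells with 2 X chromosomes, stood at 124 to 175 TPM in XX cells, at 13.6 and 24.6 TPM in Dfo XY replicates 1 and 2, and at 0.90 TPM or less in the other XY libraries. Nr5a1, Gata4, Wt1, Lhx9, Emx2 and Cbx2, markers of gonadal somatic cells, were detected in every library. Their summed level was 648 to 794 TPM in control XY, 492 to 558 in Dfo XY, 1278 to 1350 in control XX, 765 to 888 in E11.5 XY and 988 to 1179 in E11.5 XX. Of 3 lists for other cells, endothelium, macrophages and erythroid cells, the erythroid genes varied most, with sums of 148 to 164 TPM in control XX and 224 to 2426 TPM in the other libraries. A further RNA, Rpph1, took 15.3% to 23.6% of all TPM in the cultured XY libraries and 6.96% to 7.20% in control XX, and a large share of this kind lowers the TPM of every other gene. Replicates 1 and 2 were closer to each other than to replicate 3 in control XY (median absolute log2 difference 0.083 against 0.192 and 0.197) and in Dfo XY (0.098 against 0.202 and 0.207).

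Sry, on the minus strand at chrY:2662471-2663658 of mm10, is a gene of 1 exon in the GENCODE M21 annotation. The 250 bases before its start are shown because Sry is the gene of the 10 that moved most under Dfo, and those of Cbln4 because it was the other of the 7 promoters found that held the core ACAAT bound by SRY and SOX proteins. Both come from RefSeq on GRCm38.p6, at chrY:2663659-2663908 and chr2:172043467-172043716, each on the minus strand and written 5′ to 3′, with matches in capitals.
Sry: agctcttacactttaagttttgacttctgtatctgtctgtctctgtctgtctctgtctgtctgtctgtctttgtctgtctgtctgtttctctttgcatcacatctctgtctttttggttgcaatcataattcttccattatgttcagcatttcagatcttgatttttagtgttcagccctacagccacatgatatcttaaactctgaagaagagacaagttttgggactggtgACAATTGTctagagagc
Cbln4: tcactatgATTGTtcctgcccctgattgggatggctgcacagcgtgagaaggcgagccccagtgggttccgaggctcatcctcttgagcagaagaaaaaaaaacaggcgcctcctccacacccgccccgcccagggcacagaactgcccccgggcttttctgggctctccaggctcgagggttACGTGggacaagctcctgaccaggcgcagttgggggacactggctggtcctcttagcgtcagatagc
In the Sry promoter ACAAT stood at position -17 and, on the opposite strand, at -14, so that both matches overlap. Cbln4 held it on the opposite strand at -242 and also held ACGTG, the core of the hypoxia response element, at -67. On either strand, ACAAT was found in 27.7% and ACGTG in 16.6% of 32851 promoters of this length, so neither is rare, and ACGTG was in 3 of the 7, Sox8, Fgf9 and Cbln4. AAGGTCA, the site of NR5A1, was found in 4.08% of promoters and in 0 of the 7. GATAA, the site of GATA factors, was in 22.6% of promoters and in those of Fgf9 and Dhh.

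Sry, the switch of testis development, fell under Dfo, and each Dfo XY library was below each control XY library. Its level without Dfo was 19.5, 16.4 and 45.6 TPM in the cultured XY libraries, against 4.23, 2.40 and 4.18 TPM with it. The E11.5 XY libraries had 53.4 and 42.4 TPM, and Sry was listed at 0 in both control XX and both E11.5 XX libraries. Control XY replicate 3 stood with the E11.5 XY libraries, the other control XY libraries lay lower, and the 3 Dfo XY libraries lay below all of them with no overlap. The mean was 27.1 ± 16.0 TPM in control XY and 3.60 ± 1.04 TPM in Dfo XY (SD, n = 3 each), and the log2 change was -2.50 ± 0.33 SE (limma, adjusted p = 0.000359), which is 5.65-fold lower on the log2(TPM + 1) scale, a scale that understates the change of low genes. The median change of all genes was -0.17. In a library of sorted cells, fewer cells that express a gene and less RNA per cell cannot be told apart, for Sry as for the genes below.

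The other Y-linked genes did not fall by a like amount. Ddx3y, Eif2s3y, Kdm5d and Uty summed to 80.8, 81.8 and 113 TPM in control XY, against 75.6, 70.2 and 94.4 TPM with Dfo, so that these ranges overlap. Singly, Uty was lower with Dfo without overlap (9.68 to 14.6 against 15.1 to 18.0 TPM). Kdm5d (11.1 to 19.6 against 17.5 to 25.5 TPM), Eif2s3y (18.2 to 19.2 against 17.1 to 33.1) and Ddx3y (30.0 to 41.5 against 28.4 to 36.9) overlapped. Per 100 TPM of those 4 genes, Sry was 24.1, 20.0 and 40.5 in control XY, against 5.59, 3.42 and 4.43 with Dfo. The ratio was 6.30 times higher without Dfo (28.2 ± 10.84 against 4.48 ± 1.09, SD, n = 3 each, exact permutation test, two-sided p = 0.1, the smallest possible with 3 against 3). Per 1000 TPM of the 6 gonadal somatic markers, Sry was 30.0, 24.4 and 57.4 against 8.60, 4.30 and 8.38, and this ratio too was 5.25 times higher without Dfo (exact permutation test, two-sided p = 0.1). Against E11.5 XY the log2 difference of control XY was -0.93 ± 0.37 (adjusted p = 0.156), where control XY replicate 3 overlapped with E11.5 XY. Without that library the difference was -1.36 (adjusted p = 0.0193).

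**Figure D1:**
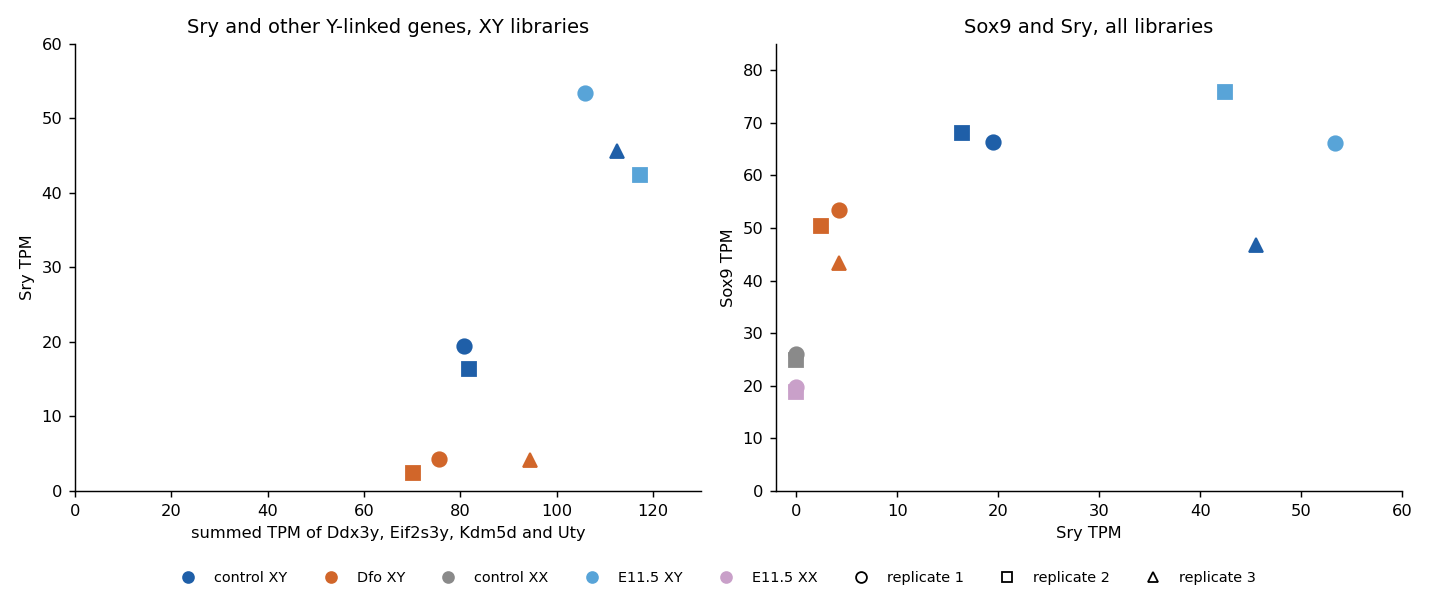
Left, TPM of Sry (vertical axis) against the summed TPM of Ddx3y, Eif2s3y, Kdm5d and Uty in the 8 XY libraries. Right, TPM of Sox9 (vertical axis) against TPM of Sry in all 12 libraries. Colours mark groups and shapes replicates. The Dfo XY libraries lie at 2.40 to 4.23 TPM of Sry, while their Y-linked sum and their Sox9 reach into the range of control XY.

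Sox9, at chr11:112782224-112787760, encodes the transcription factor that carries the Sertoli programme after SRY. The control XY libraries had 66.4, 68.1 and 46.8 TPM of it, and the Dfo XY libraries 53.4, 50.4 and 43.3 TPM. It was 26.0 and 24.8 TPM in control XX, 66.2 and 75.8 TPM in E11.5 XY and 19.8 and 18.8 TPM in E11.5 XX. Every XY library, with or without Dfo, stood above every XX library, and the Dfo XY range overlapped with that of control XY only through control XY replicate 3. The log2 change under Dfo was -0.28 ± 0.14 (adjusted p = 0.216). Without control XY replicate 3 it was -0.45 (adjusted p = 0.0335), and after scaling to the 6 gonadal somatic markers it was 0.16 (adjusted p = 0.639), so its sign depended on the scaling. That scaling moved the median of all genes from -0.17 to 0.20, and Sox9 lay below the median under both.

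The difference of Sox9 from XX cells was called in culture with and without the drug. Control XY exceeded control XX by 1.20 ± 0.16 on the log2 scale (adjusted p = 0.000770), and Dfo XY exceeded the same control XX libraries by 0.92 ± 0.16 (adjusted p = 0.000833). At E11.5 XY exceeded XX by 1.82 ± 0.18 (adjusted p = 0.000257), a call that ended when those 4 libraries were fitted alone (adjusted p = 0.261). The sex difference in culture less that at E11.5 was -0.62 ± 0.24 (adjusted p = 0.166). In order of mean, Sox9 stood at 71.0 ± 6.82 TPM in E11.5 XY, 60.4 ± 11.8 in control XY, 49.0 ± 5.17 in Dfo XY, 25.4 ± 0.813 in control XX and 19.3 ± 0.643 TPM in E11.5 XX (SD). Of neighbours in that order, only Dfo XY and control XX differed in limma.

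The ratio of Sox9 to Sry shows that the pair did not fall in step. It was 3.41, 4.15 and 1.03 in control XY, 12.6, 21.0 and 10.4 in Dfo XY, and 1.24 and 1.79 in E11.5 XY. Every Dfo XY library was above every other XY library. Per 1000 TPM of the gonadal somatic markers, Sox9 was 102, 101 and 58.9 in control XY, against 109, 90.4 and 86.9 with Dfo, and these ranges overlapped (exact permutation test, two-sided p = 0.8). Sox9 is also used in the Wolffian duct and in cartilage. Of 8 marker genes of duct and mesonephric epithelium, 3 were called lower under Dfo, and their sum was 213 to 259 TPM in control XY, 130 to 157 in Dfo XY, 299.6 to 317 in control XX, 272 to 328 in E11.5 XY and 308 to 332 in E11.5 XX. Of 5 markers of mesenchyme and cartilage 1 was called lower, with sums of 326 to 396, 218 to 242, 493 to 507, 391 to 428 and 425 to 453 TPM in the same order. In control XY against control XX, 4 of the 8 duct markers were called higher and 1, Emx2, lower, with a median of 0.85 against -0.22 over all genes. Over all 16133 genes, 479 were called higher in that comparison, and 10.5% were called lower under Dfo. Emx2, at 109 to 168 TPM in control XY and 239 to 248 TPM in control XX, makes up much of the duct sum and is also among the gonadal somatic markers, so that the sum is higher in control XX while 4 of the 8 genes were called higher in control XY. None of these 13 markers was at 0 throughout a group, and their part in the Sox9 values was not tested.

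Sox8, at chr17:25565892-25570686, encodes a relative of SOX9 that acts beside it in Sertoli cells. It was 4.92, 3.65 and 3.16 TPM in control XY, 4.21, 2.24 and 3.0 TPM in Dfo XY and 2.07 and 1.37 TPM in control XX. At E11.5 it was 2.11 and 3.82 TPM in XY and 2.44 and 3.64 TPM in XX. Control XY lay above control XX without overlap, and Dfo XY overlapped with control XY. The log2 difference between control XY and control XX was 0.85 ± 0.32 (adjusted p = 0.0718), and that between Dfo XY and control XY was -0.25 ± 0.29 (adjusted p = 0.603), with the sign turned to 0.094 after scaling to the gonadal somatic markers. Under that scaling the median Dfo change of all genes was 0.20. At E11.5 the sexes differed by -0.045 ± 0.35 (adjusted p = 0.964). Sox8 overlaps the antisense gene 2810468N07Rik and the sources used here do not say whether counting used strand, so its reads may be shared. Neural crest cells also use Sox8: of 6 crest and glia markers tested, 4 were called higher in control XY than in control XX and 2 lower under Dfo, with sums of 57.5 to 116 TPM in control XY, 31.4 to 44.1 in Dfo XY, 35.9 to 37.2 in control XX, 36.1 to 39.5 in E11.5 XY and 38.8 to 51.2 in E11.5 XX. Over all 16133 genes, 479 were called higher in control XY than in control XX, and 10.5% were called lower under Dfo. Foxd3 of the crest and glia list was at 0 in control XX and E11.5 XX, and the part of crest and glia cells in the Sox8 values was not tested.

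Dmrt1, at chr19:25505618-25604329, encodes a transcription factor that keeps Sertoli cells from taking ovarian fate later in life and that germ cells also use. It was 6.96, 10.9 and 12.2 TPM in control XY, 2.79, 4.42 and 4.93 TPM in Dfo XY and 20.6 and 24.4 TPM in control XX. The E11.5 libraries had 13.7 and 16.2 TPM in XY and 19.7 and 19.2 TPM in XX. The Dfo XY libraries lay below every other library, and XX libraries lay above XY libraries at both stages, with no overlap. Dmrt1 fell under Dfo by a log2 change of -1.12 ± 0.23 (adjusted p = 0.00568), 2.18-fold. With Dfo XY replicates 1 and 2, which held Xist, left out, the change was -0.86 (adjusted p = 0.141), with 1 Dfo library left.

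Dmrt1 was also lower in XY than in XX cells in culture, by -1.12 ± 0.25 without Dfo (adjusted p = 0.00796) and by -2.24 ± 0.25 with Dfo (adjusted p = 4.28e-05). The difference without Dfo lost its call under median-of-ratios scaling (-0.81, adjusted p = 0.0638), quantile normalization (-0.87, adjusted p = 0.0771), with the 50 most abundant genes left out (-0.88, adjusted p = 0.0549), with scaling to the gonadal somatic markers (-0.27, adjusted p = 0.396) and without control XX replicate 2 (-1.0, adjusted p = 0.0605). At E11.5 the sexes differed by -0.37 ± 0.28 (adjusted p = 0.488). Per 1000 TPM of gonadal somatic markers, Dmrt1 was 10.7, 16.3 and 15.4 in control XY, 5.67, 7.92 and 9.88 in Dfo XY and 15.3 and 19.1 in control XX, so that on this ratio control XY and control XX overlapped and Dfo XY stayed below both. The 8 germ cell markers summed to 23.6 to 25.4 TPM in control XY, 4.07 to 10.7 in Dfo XY, 13.2 to 15.5 in control XX, 30.2 to 32.6 in E11.5 XY and 34.2 to 39.5 in E11.5 XX. Under Dfo 2 of the 8, Dppa5a and Sall4, were called lower, where 10.5% of all genes were called lower. The defining marker Ddx4 was at 0.08 to 0.26 TPM against 0.36 to 0.70 TPM in control XY, and the part of germ cells in the Dmrt1 change was not tested. Nanos3 of the germ cell list was at 0 in both E11.5 XY libraries.

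Nr0b1, at chrX:86191764-86195947, encodes DAX1, a nuclear receptor that represses NR5A1-driven transcription and is used in gonad and adrenal. It was 31.8, 30.5 and 33.4 TPM in control XY, 17.9, 25.5 and 24.4 TPM in Dfo XY and 44.4 and 33.3 TPM in control XX. At E11.5 it was 27.6 and 29.6 TPM in XY and 31.1 and 24.2 TPM in XX. Dfo XY lay below control XY and control XX without overlap, and the sexes overlapped at E11.5. The log2 change under Dfo was -0.49 ± 0.16 (adjusted p = 0.0556), which was called without control XX replicate 1 (adjusted p = 0.0481) or 2 (adjusted p = 0.0472) and was -0.064 after scaling to the gonadal somatic markers.

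Against control XX, Nr0b1 was lower in Dfo XY by -0.76 ± 0.18 (adjusted p = 0.00516) and differed by -0.26 ± 0.18 in control XY (adjusted p = 0.306). Neither sign held under every scaling: after scaling to the gonadal somatic markers, Dfo XY exceeded control XX by 0.55 (adjusted p = 0.0160) and control XY by 0.61 (adjusted p = 0.0197), and median-of-ratios scaling gave -0.29 and 0.057. Gonadal marker scaling gave 9498 genes higher and 129 lower in Dfo XY against control XX, with a median of 0.76. For control XY it gave 5526 and 19, with a median of 0.53, so these turned signs were not particular to Nr0b1. Without control XX replicate 1 the difference of Dfo XY was -0.55 (adjusted p = 0.0734). Of 5 tested adrenal and steroidogenic markers 1, Cyp11a1, was called lower under Dfo, where 10.5% of all genes were called lower. The 6 of the list summed to 49.5 to 72.5 TPM in control XY, 25.1 to 47.3 in Dfo XY, 109.6 to 135 in control XX, 29.5 to 32.4 in E11.5 XY and 42.3 to 60.3 in E11.5 XX. Cyp17a1 was at 0 in all 3 Dfo XY libraries, and the part of such cells in the Nr0b1 values was not tested.

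**Figure D2:**
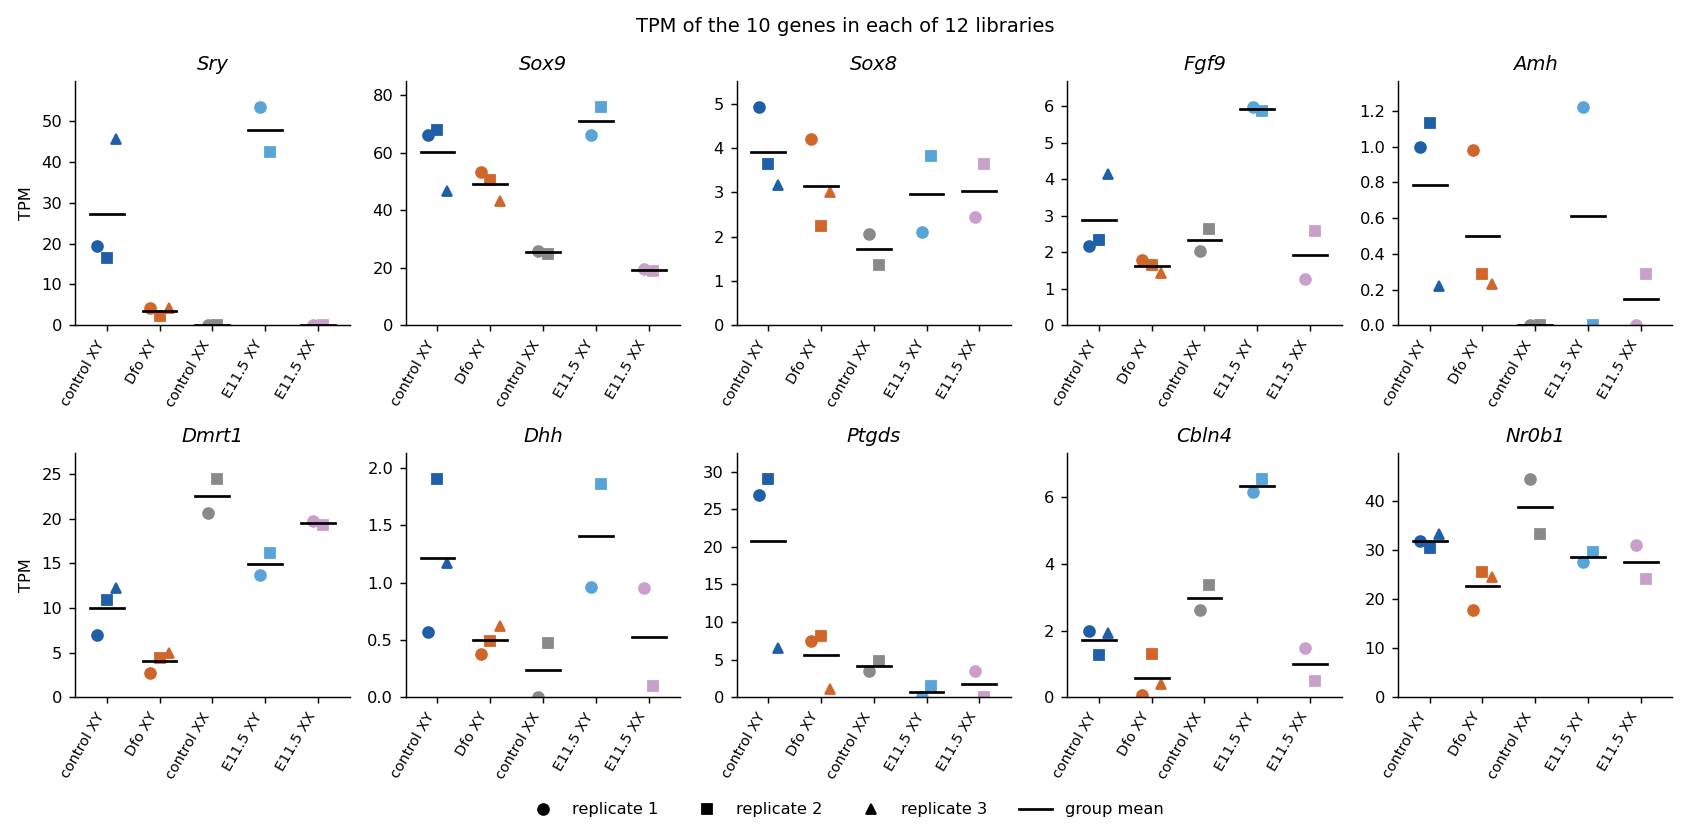
TPM (vertical axes, each from 0 and scaled per gene) of the 10 genes in the 5 groups. Points are libraries with shapes for replicates, and bars are group means. The 3 Dfo XY points lie below all 3 control XY points for Sry, Fgf9, Dmrt1 and Nr0b1, and Sox9 separates every XY from every XX library. Fgf9 and Nr0b1 were not called under Dfo, and the share of all genes that separate in this way was not computed.

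Of the secreted signals, Fgf9, at chr14:58070547-58112720, encodes the growth factor that sustains Sox9 and holds back WNT4. It was 2.18, 2.33 and 4.15 TPM in control XY, 1.79, 1.64 and 1.44 TPM in Dfo XY and 2.04 and 2.65 TPM in control XX. At E11.5 it was 5.97 and 5.86 TPM in XY and 1.27 and 2.58 TPM in XX. The E11.5 XY libraries were the highest, control XY and control XX overlapped, and Dfo XY lay below both cultured controls without overlap. The log2 change under Dfo was -0.53 ± 0.28 (adjusted p = 0.221). Against control XX, Dfo XY differed by -0.35 ± 0.31 (adjusted p = 0.418), or by 0.55 after scaling to the gonadal somatic markers, where the median of all genes was 0.76. At E11.5 the difference of XY from XX was 1.28 ± 0.34 (adjusted p = 0.0627), which was called without control XY replicate 3 (adjusted p = 0.0451). In culture the sexes differed by 0.19 ± 0.31 (adjusted p = 0.683), or -0.034 without control XY replicate 3, and the sex difference in culture less that at E11.5 was -1.09 ± 0.46 (adjusted p = 0.200).

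Cbln4, at chr2:172036233-172043466, encodes a secreted protein of the cerebellin family and is a known target of SRY and SOX9 in the mouse gonad. It was 1.98, 1.26 and 1.94 TPM in control XY, 0.08, 1.29 and 0.39 TPM in Dfo XY and 2.62 and 3.35 TPM in control XX. In E11.5 cells it was 6.13 and 6.52 TPM in XY and 1.49 and 0.49 TPM in XX. As deposited, XY was the higher sex at E11.5 and XX had the higher TPM in culture, with no overlap at either, while control XY and Dfo XY overlapped. At E11.5 XY exceeded XX by 1.93 ± 0.40 (adjusted p = 0.0315), and in culture the difference was -0.55 ± 0.37 (adjusted p = 0.295), or 0.066 after scaling to the gonadal somatic markers. Under that scaling the median of all genes in culture was 0.53. The sex difference in culture less that at E11.5 was -2.48 ± 0.54 (adjusted p = 0.0479), and it was the only one of the 10 genes called in that test, where 1.33% of all genes were called (5 of 24 alternatives kept the call).

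These Cbln4 calls rest on low TPM and few libraries. The sex difference at E11.5 missed the threshold without E11.5 XY replicate 1 (adjusted p = 0.0693) or 2 (adjusted p = 0.0831), E11.5 XX replicate 1 (0.0816) or 2 (0.116), or control XY replicate 1 (0.0520) or 2 (0.0546). Control XY was lower than E11.5 XY by -1.44 ± 0.37 (adjusted p = 0.0408), and this call ended in 14 of 24 alternatives, among them leaving out control XY replicate 1 (0.105) or 2 (0.147), either control XX replicate (0.0501 and 0.0503) or E11.5 XY replicate 1 (0.119) or 2 (0.127). Under Dfo the change against control XY was -0.84 ± 0.33 (adjusted p = 0.105). Dfo XY was lower than control XX by -1.39 ± 0.37 (adjusted p = 0.00937), with -1.26 without control XX replicate 2 (0.0655), -1.12 under median-of-ratios scaling (0.0522) and -0.71 with scaling to the gonadal somatic markers (0.143).

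Amh, at chr10:80805243-80807648, encodes the hormone that removes the Müllerian duct and is a target of SOX9 that Sertoli cells use in quantity only later. It was 1.0, 1.13 and 0.22 TPM in control XY, 0.98, 0.29 and 0.23 TPM in Dfo XY, 1.22 and 0 TPM in E11.5 XY and 0 and 0.29 TPM in E11.5 XX, and both control XX libraries listed it at 0. The level did not exceed 1.22 TPM in any library, and control XY and Dfo XY overlapped (log2 change -0.24 ± 0.38, adjusted p = 0.718). Dhh, at chr15:98891152-98898540, encodes Desert hedgehog, the Sertoli signal to fetal Leydig cells. It was 0.57, 1.90 and 1.17 TPM in control XY, 0.38, 0.49 and 0.62 TPM in Dfo XY, 0 and 0.47 TPM in control XX, 0.96 and 1.86 TPM in E11.5 XY and 0.95 and 0.10 TPM in E11.5 XX. No library passed 1.90 TPM, Dfo XY overlapped with control XY at its lower end (-0.52 ± 0.35, adjusted p = 0.351), and the sexes differed in culture by 0.82 ± 0.39 (adjusted p = 0.144). Dhh overlaps Rhebl1 on the same strand, so its reads may be shared too. Neither Amh nor Dhh was called in any comparison.

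Ptgds, at chr2:25466709-25470046, encodes the prostaglandin D2 synthase that SOX9 switches on and whose product supports Sox9. It was 26.9, 29.0 and 6.60 TPM in control XY, 7.48, 8.10 and 1.16 TPM in Dfo XY and 3.48 and 4.84 TPM in control XX. At E11.5 it was 0 and 1.54 TPM in XY and 3.52 and 0 TPM in XX. Replicate 3 was the lowest of its group both with and without Dfo, and control XY replicate 3 overlapped with Dfo XY. Between libraries of the same number Ptgds was lower with Dfo in each of the 3 pairs, by log2 differences of -1.72, -1.72 and -1.82. The log2 change under Dfo was -1.75 ± 0.70 (adjusted p = 0.117), or -1.75 ± 0.53 with the replicate number as a block (adjusted p = 0.0509), neither of them called. The difference of control XY from control XX was 1.86 ± 0.79 (adjusted p = 0.104), which was 2.50 and called without control XY replicate 3 (adjusted p = 0.0372). Control XY exceeded E11.5 XY by 3.54 ± 0.79 (adjusted p = 0.0239), with no overlap. That call ended without control XY replicate 1 (3.24, adjusted p = 0.0953) or 2 (3.19, adjusted p = 0.0949) and without E11.5 XY replicate 1 (2.87, adjusted p = 0.156) or 2 (4.21, adjusted p = 0.0542). Dfo XY differed from control XX by 0.11 ± 0.79 (adjusted p = 0.937), and the sign turned without Dfo XY replicate 1 (-0.21), Dfo XY replicate 2 (-0.26) or control XX replicate 1 (-0.086). The crest and glia sum given for Sox8 was likewise higher without Dfo, with 116, 101 and 57.5 TPM in control XY, against 44.1, 31.9 and 31.4 TPM with Dfo. Replicate 3 was the lowest in control XY, while replicates 2 and 3 were nearly equal in Dfo XY. Tubb3 alone gave 70.4, 58.6 and 21.6 TPM of this sum in control XY and 18.2, 11.4 and 8.69 TPM with Dfo. At E11.5 the sum was 36.1 to 39.5 TPM in XY and 38.8 to 51.2 TPM in XX, where Ptgds did not exceed 3.52 TPM. Replicate 3 was also the lowest of control XY in the sums of endothelial (127, 130 and 57.9 TPM) and erythroid markers (1632, 1871 and 224 TPM), and the part of these cells in the Ptgds values was not tested.

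Across the 10 genes, Sry and Dmrt1 were called lower under Dfo and 0 were called higher in limma, against 15.5% of all tested genes called in either direction and 10.5% called lower. At an unadjusted p under 0.05, 5 were lower and 0 higher. The share of all genes at that unadjusted threshold was not computed, so this count and those like it below have no background beside them. With TPM as deposited the change was negative for each of the 10, with a median of -0.53 against -0.17 over all genes, and those of Sox9 and Sox8 turned positive after scaling to the gonadal somatic markers. The scaling also set the direction of calls over all genes: 803 were higher and 1695 lower under Dfo as deposited, while median-of-ratios scaling gave 1520 higher and 1024 lower and moved the median of all genes to -0.051. Gonadal marker scaling gave 3182 higher and 334 lower, with a median of 0.20, which lies above the values of Sox9 and Sox8 under that scaling. Under each scaling run, as deposited, median of ratios, quantile, the 50 most abundant genes left out and the gonadal somatic markers, Sry and Dmrt1 stayed called lower.

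**Figure D3:**
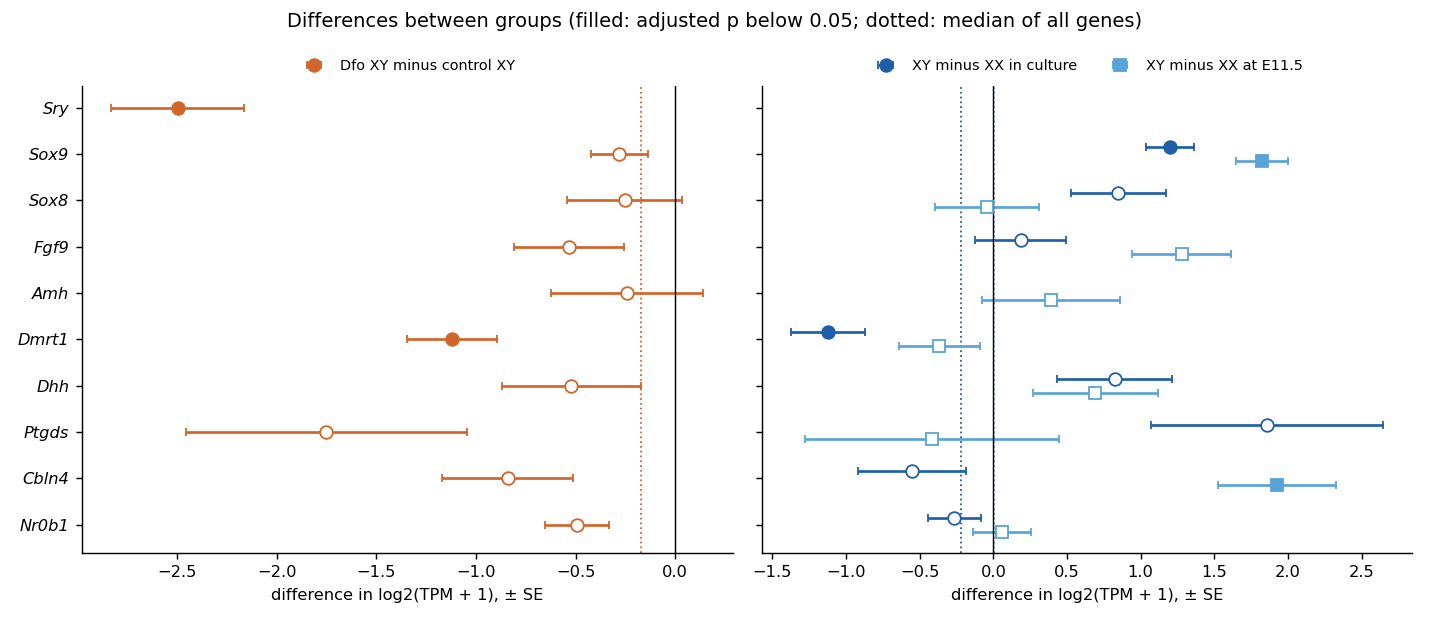
Differences in log2(TPM + 1) with SE bars (horizontal axes). Left, Dfo XY minus control XY. Right, XY minus XX in culture (circles) and at E11.5 (squares), without Sry and, in culture, without Amh, since XX libraries list these at 0. Filled symbols have an adjusted p below 0.05 and dotted lines mark the median of all genes. Sry, at -2.50, lies farthest from the median line under Dfo, and Cbln4 has opposite signs in culture (not called, and 0.066 after scaling to the gonadal somatic markers) and at E11.5.

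Between the sexes, Sry is Y-linked and at 0 in XX cells, so its difference is given by the sex chromosomes and it is left out of these counts. Control XY against control XX gave Sox9 higher and Dmrt1 lower, which is 2 of the 9 further genes where 25.2% of all genes were called. As deposited, 479 of all genes were higher and 3585 lower in control XY than in control XX, with a median of -0.22, and median-of-ratios scaling gave 529 higher and 499 lower, with a median of 0.069. Dfo XY against the same control XX libraries gave Sox9 higher and Dmrt1, Cbln4 and Nr0b1 lower, 4 of 9 where 38.6% of all genes were called. For all genes that comparison gave 773 higher and 5461 lower, and 1774 and 1410 after median-of-ratios scaling. E11.5 XY against E11.5 XX gave Sox9 and Cbln4 higher, 2 of 9 where 2.29% of all genes were called.

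Between culture and E11.5, control XY had Ptgds higher and Cbln4 lower than E11.5 XY, 2 of 10 where 5.66% of all genes were called. Control XX against E11.5 XX gave 0 of 10 in limma, where 9.07% of all genes were called, and 2 of 10, Cbln4 and Nr0b1, were higher at an unadjusted p under 0.05. Their log2 differences were 1.04 ± 0.40 (adjusted p = 0.125) and 0.47 ± 0.20 (adjusted p = 0.154). Sox9 differed by 0.38 ± 0.18 between those groups (adjusted p = 0.208), and Sry was at 0 in both.

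**Figure D4:**
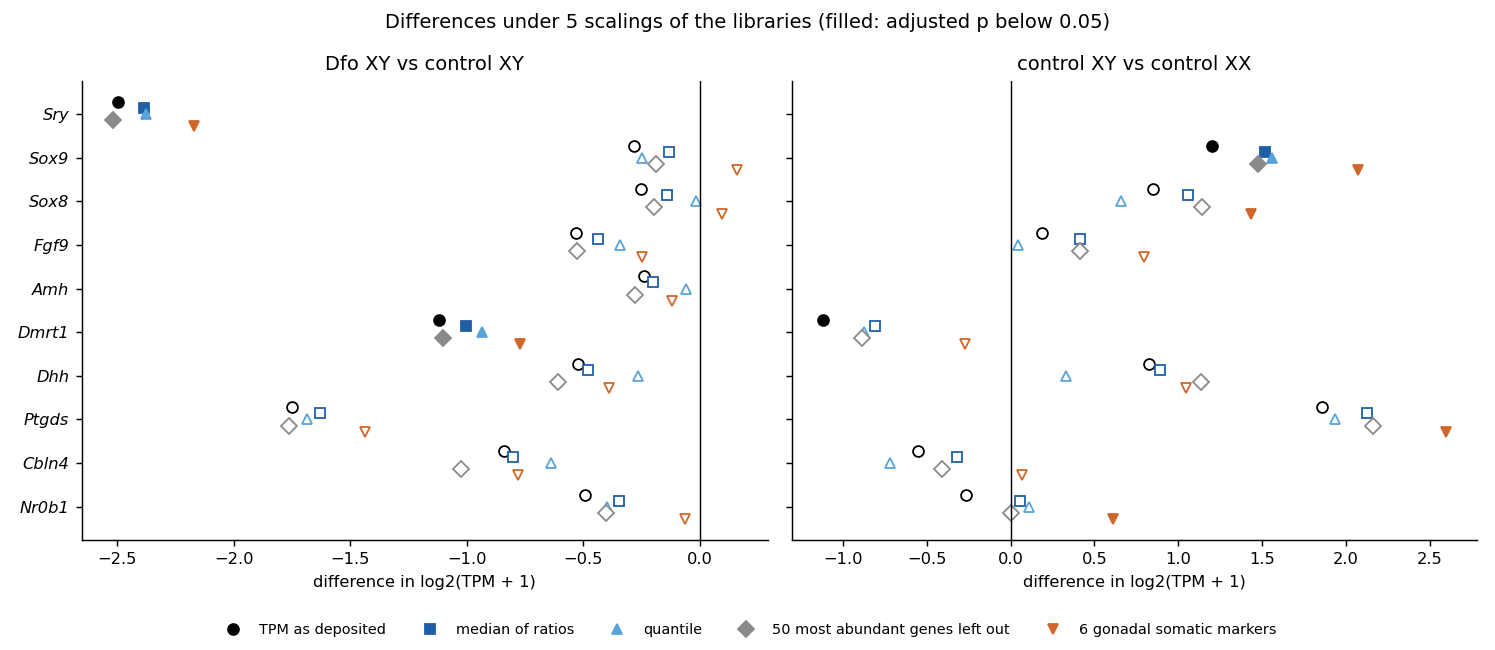
Difference in log2(TPM + 1) (horizontal axes) of each gene under 5 scalings of the libraries, for Dfo XY against control XY (left) and control XY against control XX (right, without Sry and Amh, which control XX lists at 0). Filled symbols have an adjusted p below 0.05. Sry and Dmrt1 are filled under each scaling on the left and Sox9 on the right, while Dmrt1 on the right is filled only for TPM as deposited.

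The genes whose profiles over the 12 libraries were nearest to that of Sry were Kdm5d, Uty, Eif2s3y, Zfp91Cntf and Ddx3y, by the root mean square difference of centred log2(TPM + 1) values. For Kdm5d this was 0.892 and for Uty 1.01, where the spread of Sry about its own mean was 2.24. The 4 Y-linked genes among them share with Sry that XX libraries list them at or near 0, which sets most of the likeness. For Sox9, with a spread of 0.680, the nearest were Pgf (0.327), Chrnb1 (0.330), Mgst3 (0.341), Dnajb5 (0.411) and Ppargc1a (0.413). These are descriptions over libraries of 5 groups, with no test.

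Genes listed by role around the 10 give the setting. Of 14 genes known to act upstream of Sry, 3 were called higher and 5 lower under Dfo, where 15.5% of all genes were called in either direction and 10.5% lower. Kdm3a, the H3K9 demethylase of the background above, was 92.9, 87.7 and 104 TPM in control XY, against 290.4, 304 and 301 TPM with Dfo, where it rose by 1.65 ± 0.10 (adjusted p = 8.38e-07). Its transcript thus stood highest in the libraries where Sry stood lowest among XY cells. Wt1 (-0.38 ± 0.075, adjusted p = 0.00555) and Gadd45g (-0.61 ± 0.13, adjusted p = 0.00628), which are needed for full Sry expression, fell, and the receptor gene Igf1r rose by 0.51 ± 0.12 (adjusted p = 0.0108). In control XY against control XX 9 of the 14 were lower and 0 higher in limma (11 and 0 at an unadjusted p under 0.05), where 22.2% of all genes were called lower as deposited, a direction that turned with the scaling. Of the 14, Nr5a1, Gata4, Wt1, Lhx9 and Cbx2 are also gonadal somatic markers, whose sum was higher in control XX than in control XY. That sum was also lower under Dfo, at 492 to 558 TPM against 648 to 794 TPM in control XY. Its part in either comparison, as in the fall of Wt1 under Dfo, was not tested. At E11.5 1 was lower, Kdm3a (-0.64 ± 0.12, adjusted p = 0.0256), where 2.29% of all genes were called. Between control XY and E11.5 XY 0 were called, where 5.66% of all genes were called, with 1 higher and 3 lower at an unadjusted p under 0.05.

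Of 22 tested Sertoli genes other than the 10, 3 were called lower under Dfo and 0 higher (9 and 0 at an unadjusted p under 0.05), near the 10.5% called lower over all genes. They were Aldh1a1 (-1.63 ± 0.37, adjusted p = 0.0109), an enzyme of retinoic acid synthesis, and the cystatin genes Cst9 (-1.50 ± 0.43, adjusted p = 0.0333) and Cst8 (-1.60 ± 0.48, adjusted p = 0.0421). Aldh1a1 stood higher in XX cells in culture, at 100 and 104 TPM in control XX, against 31.8, 36.5 and 39.0 TPM in control XY. The list's sum was also highest there, at 357 to 387 TPM in control XX, 274 to 291 in control XY and 167 to 205 in Dfo XY. The median of the list was -0.51 against -0.17 over all genes. In culture, control XY had 3 higher and 3 lower than control XX, where 25.2% of all genes were called. Among them, Sostdc1, a BMP and WNT antagonist, was higher by 2.16 ± 0.40 (adjusted p = 0.00322) and the inhibin subunit Inhbb lower by -1.06 ± 0.16 (adjusted p = 0.00146). Sox10 of this list, higher by 1.16 ± 0.29 (adjusted p = 0.0131), is also a neural crest marker. At E11.5 0 of the 22 were called, where 2.29% of all genes were called, with 4 higher and 1 lower at an unadjusted p under 0.05.

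Of 11 tested receptors and targets of FGF9, AMH and DHH signals, 2 were called higher and 3 lower under Dfo, where 15.5% of all genes were called in either direction. Amhr2, the AMH receptor, was 95.9, 99.1 and 118 TPM in control XY, 44.8, 54.5 and 40.3 TPM in Dfo XY and 191 and 176 TPM in control XX. It fell under Dfo by -1.15 ± 0.12 (adjusted p = 6.68e-05), and it was lower in XY than in XX cells at E11.5 (-0.99 ± 0.15, adjusted p = 0.00767). Gli1, a target of hedgehog signalling, fell by -0.90 ± 0.18 (adjusted p = 0.00482) and the FGF receptor Fgfr3 by -0.94 ± 0.24 (adjusted p = 0.0181). The receptor genes Bmpr1a and Acvr1 of the same list went the other way. Bmpr1a was 55.7, 53.4 and 60.3 TPM in control XY, against 69.15, 69.23 and 73.9 TPM with Dfo. Acvr1 was 15.4, 17.9 and 22.8 TPM in control XY, against 27.4, 23.55 and 33.4 TPM with Dfo. Of 11 genes listed for the ovarian side, 4 were called lower under Dfo and 0 higher (4 and 0 at an unadjusted p under 0.05). Among the lower ones was Rspo1, a WNT activator, at -1.12 ± 0.11 (adjusted p = 4.45e-05). The list's median was -0.22 against -0.17 over all genes, of which 10.5% were called lower. Wnt4 was lower in XY than in XX cells in culture (-1.31 ± 0.13, adjusted p = 0.000222) and at E11.5 (-1.10 ± 0.14, adjusted p = 0.00217). Fst, at -2.56 ± 0.26, was lower in XY cells at E11.5 (adjusted p = 0.000406). In culture too Fst had lower values in XY cells, with 16.7, 19.2 and 25.6 TPM in control XY, against 39.4 and 40.5 TPM in control XX.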

How the data were processed

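RNA-seq was made from NR5A1(+) cells with the SMART-Seq Stranded Kit, per the labels' protocols. The authors deposited 1 table of TPM per library, and the submitters' processing notes name STAR 2.7.10b, RSEM, R 4.1.2 and mm10. The annotation and counting settings were not given in the sources used here. In each library TPM sum to about 1000000, so depth is unknown and no counting interval is given.

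The members and lists were chosen with earlier results of these data known. From the deposited TPM, log2(TPM + 1) values of 16133 genes with at least 1 TPM in at least 2 of 12 libraries were fitted in limma 3.58.1 (R 4.3.3, 1 coefficient per group, variance trend). The Benjamini-Hochberg adjustment ran within each comparison, with 0.05 as the threshold. The fit was tested on simulated data. All 10 members are reported with every library's value. From each context list the text gives counts and up to 4 called genes per comparison, by smallest adjusted p. For some further list genes it gives TPM only. Likeness to Sry and Sox9 was ranked among genes whose mean reached 5 TPM in at least 1 group. Gene positions are those of GENCODE M21. Promoters, 250 bases before the start, were found for 7 of 10 members.

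Replicate numbers were checked for pairing: across 10651 genes, deviations of control XY and Dfo XY libraries with the same number correlated at 0.24, 0.14 and 0.36, which met the rule for pairing, although replicates 1 and 2 also correlated across numbers (0.15 and 0.19). The reported fit has no block and the permutation tests are unpaired, and the block is an alternative. Alternatives changed the pseudocount, the filter, the scaling, the variance trend, the libraries fitted and the replicate block. Scaling to the 6 gonadal somatic markers was chosen after seeing the data.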

Additional observations from a re-analysis of the deposited data

Results flagged for a closer look

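The XY minus XX difference of Cbln4 was another in culture than at E11.5, by -2.48 ± 0.54 on the log2 scale (interaction in limma, adjusted p = 0.0479). Cbln4 stood at 1.26 to 1.98 TPM in control XY and 2.62 to 3.35 TPM in control XX, and at 6.13 to 6.52 TPM in E11.5 XY and 0.49 to 1.49 TPM in E11.5 XX. Over the alternatives the value ran from -3.50 to -1.17 and the adjusted p from 0.0220 to 0.171, and 19 of 24 ended the call.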

How the results depend on the processing

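Of 1636 recomputed values 1514 kept their side of the threshold and, apart from values within 0.005 of 0, their direction, and the causes of the other changes were not tested except where fewer libraries were fitted. In many of the 1636 the direction could not change. Leaving out a library outside the comparison, changing the filter or dropping the variance trend leaves the log2 difference as it was. Sry between the sexes, set by the sex chromosomes, is counted too. Sry under Dfo kept its call in all 25 alternatives (-2.77 to -1.80), and Sox9 in XY against XX in culture in all 24 (1.09 to 2.07). Of the 10 members, the number called under Dfo was 2, with 1 when both Dfo XY libraries with Xist were left out and 3 with the stricter filter or without control XY replicate 3, control XX replicate 1 or control XX replicate 2. For control XY against control XX it was 3 (2 to 5 over all alternatives), with 5 under the replicate block and 5 under gonadal marker scaling. In Dfo XY against control XX it was 5, with 3 under median-of-ratios scaling. At E11.5 it was 3, with 0 when only the 4 libraries of that comparison were fitted, 2 at a pseudocount of 0.1, with no filter, the stricter filter or quantile normalization, 4 at a pseudocount of 5, with no variance trend or gonadal marker scaling, and 2 to 4 when a library was left out. For control XY against E11.5 XY it was 2, with 0 at a pseudocount of 0.1, with no filter, with the compared groups alone and with replicates 1 and 2 averaged, 1 with the stricter filter, with the 50 most abundant genes left out, with no variance trend and with gonadal marker scaling, and 0 to 3 when a library was left out. The interaction had 1, with 0 at a pseudocount of 0.1, with no filter or the stricter one, under median-of-ratios, quantile, most-abundant-gene and gonadal marker scaling, with no trend, with the compared groups alone and with averaged replicates, and 0 to 1 when a library was left out.

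Signs turned, in log2 units, as follows. Gonadal marker scaling gave 0.16 for Sox9 and 0.094 for Sox8 under Dfo, 0.066 for Cbln4 and 0.61 for Nr0b1 in control XY against control XX, 0.55 for both Fgf9 and Nr0b1 in Dfo XY against control XX, 0.24 for Sox8 at E11.5, -0.075 for Dmrt1 in control XX against E11.5 XX and 0.18 for Nr0b1 in the interaction. This scaling also moved the median of all genes, to 0.20 under Dfo, 0.53 in control XY and 0.76 in Dfo XY against control XX. The median was 0.35 at E11.5, -0.068 in control XX against E11.5 XX and 0.18 in the interaction. In control XY against control XX, Nr0b1 was 0.057 under median-of-ratios scaling and 0.11 under quantile normalization. In Dfo XY against control XX, Ptgds was -0.23 with averaged replicates, and -1.24 without both Xist libraries. Dhh in control XY against E11.5 XY was 0.058 under quantile normalization. Values within 0.005 of 0 on the other side were Dhh at E11.5 under quantile normalization (-0.0050), Dmrt1 at E11.5 under gonadal marker scaling (0.00072) and Nr0b1 in control XY against control XX with the 50 most abundant genes left out (2.25e-06). Leaving out 1 library at a time, results whose sign turned ranged as follows. In control XY against control XX Fgf9 ran from -0.034 to 0.32, and in Dfo XY against control XX Ptgds from -0.26 to 0.78. At E11.5 Sox8 ran from -0.36 to 0.27, Amh from -0.18 to 0.97, Ptgds from -1.50 to 0.67 and Nr0b1 from -0.12 to 0.23. Against E11.5 XY, control XY had Dhh from -0.41 to 0.13 and Amh from -0.36 to 0.79, in control XX against E11.5 XX Dhh from -0.69 to 0.14 and Fgf9 from -0.10 to 0.55, and in the interaction Dhh from -0.28 to 0.54 and Amh from -0.17 to 0.98.

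The replicate block raised the genes called under Dfo from 2498 to 3051 and changed no member's call there. In control XY against control XX it gave calls to Sox8 (0.91, adjusted p = 0.0331) and Ptgds (2.52, adjusted p = 0.0154), and in control XY against E11.5 XY it gave one to Dmrt1 (-0.87, adjusted p = 0.0445) and ended that of Cbln4 (adjusted p = 0.0520). Same-numbered libraries of the other groups correlated within ±0.08, so the number pairs nothing there. The block nevertheless used the number in control XX and in the E11.5 groups too. Its values for comparisons with those groups therefore rest on a pairing that was not seen. Counts over all genes ranged over the alternatives from 833 to 3516 (2498 as reported) under Dfo, 614 to 5545 (4064) in control XY against control XX, 2899 to 9627 (6234) in Dfo XY against control XX, 0 to 925 (370) at E11.5, 184 to 1516 (913) in control XY and 0 to 1684 (1463) in control XX against E11.5, and 8 to 1742 (215) for the interaction. TPM keep no depth, so whether low members such as Amh and Dhh were limited by it cannot be read from these files.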
